A study of Mus musculus with 9 samples.

Results

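The 8 mouse genes that encode the common gamma chain and the receptor chains pairing with it were taken by name (Il2ra, Il2rb, Il2rg, Il4ra, Il7r, Il9r, Il15ra and Il21r), and all 8 were found among 53679 gene IDs. The libraries hold total RNA of C57BL/6 CD8+ T cells that had been activated for 3 days. The 3 groups were Tc0 cells given no CoA, Tc0 cells given coenzyme A (CoA), the acyl carrier that cells build from pantothenate, and Tc22 cells given no CoA. By field usage, Tc0 cells are CD8+ T cells kept free of polarising cytokines, and Tc22 cells are the subset that makes interleukin-22. The sources used here do not give the activation stimulus, any cytokine in the medium or the dose of CoA. Each group had 3 libraries, 1 from each of 3 mice (715, 725 and 728), so every mouse gave all 3 populations. They give the strain but neither a genotype nor an age.

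The common gamma chain, encoded by Il2rg, is the shared subunit of the receptors for IL-2, IL-4, IL-7, IL-9, IL-15 and IL-21. Each cytokine adds a private chain, and IL-2 and IL-15 also share the beta chain (Il2rb). The intracellular part of the gamma chain binds the kinase JAK3. The beta chain (for IL-2 and IL-15) or the private chain (for the other cytokines) binds JAK1. Together these kinases activate STAT proteins. In CD8+ T cells these receptors carry signals for proliferation (IL-2), survival at rest (IL-7, IL-15), and differentiation (IL-4, IL-9, IL-21).

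The libraries held 21841034 to 36254631 gene counts. The Tc0 library of mouse 728 lay apart from the other Tc0 libraries: its log2 differences from them had an SD of 0.641 and 0.763 over genes, against 0.256 to 0.488 for the pairs of replicates without it. It had a histone gene share of 0.780% and a mitochondrial share of 2.0%, against 0.252% and 3.97% (mouse 715) and 0.302% and 3.33% (mouse 725) in the other Tc0 libraries. Receptor gene calls that change without it are given in the paragraphs concerned, with some of the list counts. Changes in the other list counts are not all given. Cd8a, a defining marker, stood at 647 to 860 CPM (counts scaled to library size) in all 9 libraries. Cd3e was at 53.4 to 129 CPM and the T cell receptor gene Trac at 143 to 259 CPM. Of 5 CD8 T cell markers 3 fell with CoA against untreated Tc0, Cd3e, Cd3d and Trac. The same 3 rose in Tc22 against Tc0 with CoA, with a median log2 difference of 0.58 over the 5 markers. Of all genes tested, 24.5% and 32.0% were called in these 2 comparisons. The part of the markers in the receptor results was not tested. In bulk RNA, fewer cells of a type and less RNA per cell cannot be told apart.

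The promoters of Il21r and Il2rg are shown because these genes gave the 2 calls with the smallest p-values in the direct comparison of Tc22 with Tc0 with CoA, and in opposite directions. Both are RefSeq windows of GRCm38.p6, from 250 bases before to 50 after the start site, printed 5′ to 3′ on the strand of the gene. The Il21r window is chr7:125603179-125603478 (plus strand), and capitals mark the reverse complement of GTAAACA, a FOXO motif. The Il2rg window is chrX:101268206-101268505 (minus strand), and capitals mark CNGGAAG, an ETS motif, on either strand.
Il21r: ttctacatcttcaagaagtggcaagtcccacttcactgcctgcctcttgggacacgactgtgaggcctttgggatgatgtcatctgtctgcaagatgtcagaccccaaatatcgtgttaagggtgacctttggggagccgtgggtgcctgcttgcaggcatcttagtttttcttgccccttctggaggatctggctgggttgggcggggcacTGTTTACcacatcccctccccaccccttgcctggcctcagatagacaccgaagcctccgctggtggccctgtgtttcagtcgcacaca
Il2rg: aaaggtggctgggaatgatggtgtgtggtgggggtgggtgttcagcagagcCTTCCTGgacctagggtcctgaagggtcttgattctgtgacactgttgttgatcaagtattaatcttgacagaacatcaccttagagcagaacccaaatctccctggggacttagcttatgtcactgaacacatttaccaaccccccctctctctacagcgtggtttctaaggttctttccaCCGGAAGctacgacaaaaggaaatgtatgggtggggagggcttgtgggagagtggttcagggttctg

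Motifs were searched in all 8 windows that RefSeq gives for 7 of the genes (Il15ra has 2, and Il2rb is not in the table), on both strands. GTAAACA was found in 1 window, that of Il21r, 38 bases before the start site, and in 3.65% of 32851 windows of all genes. CNGGAAG was found in Il2rg (199 and 17 bases before the start site), Il7r and Il15ra, and in 31.9% of all windows. TTCNNNGAA, a STAT motif, was found in Il7r alone (142 bases before the start site) and in 8.30% of all windows. The STAT6 form, with 4 free bases between TTC and GAA, was found in 0 of these windows and in 6.95% of all. An NF-kB motif, GGGA and CCC with 3 free bases between them, was found in Il2ra alone (201 bases before) and in 5.55% of all windows. TGANTCA, an AP-1 motif, was found in Il15ra alone (7.81% of all). TGGAAA, an NFAT motif, was found in Il15ra and Il2rg (21.4% of all).

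In the annotation used (GENCODE M21, GRCm38), 2 pairs of these genes are neighbours with 0 protein-coding genes between them. Il2ra (chr2:11642807-11693193, plus strand) lies 12096 bases from Il15ra (chr2:11705290-11734317, plus strand). Il4ra (chr7:125552120-125579474, plus strand) lies 23954 bases from Il21r (chr7:125603429-125633570, plus strand). Il2rb (chr15:78479256-78495271) and Il7r (chr15:9505788-9530176) share a chromosome but not a neighbourhood, both on the minus strand. Il2rg (chrX:101264378-101268255) and Il9r (chr11:32187541-32200279) are on the minus strand too. Il4ra overlaps the antisense gene Gm44876, which had 3 counts against 38706 of Il4ra over the 9 libraries. Il2rg overlaps Gm20489 on the same strand, which had 9 counts against 53477. Gm37881 lies within Il2ra on the same strand without sharing an exon, and had 980 counts against 152565.

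On the scale of CPM per kilobase of exon, which allows levels of different genes to be set side by side, Il2rb had the highest mean in each group by the union of annotated exons. In Tc0 libraries Il2rb was at 132.5 ± 41.1 CPM per kilobase (mean ± SD, n = 3), Il2ra at 90.9 ± 30.8 and Il2rg at 77.5 ± 9.49. Il7r (41.2 ± 15.1), Il21r (27.9 ± 5.98) and Il4ra (20.6 ± 9.96) followed. Il15ra (1.69 ± 0.193) and Il9r (0.103 ± 0.0373) were far lower. In Tc0 libraries the ranges of Il2rb and Il2ra, Il2ra and Il2rg, Il7r and Il21r, and Il21r and Il4ra overlapped. Within libraries Il21r still stood above Il4ra in 3 of 3, while Il2rb stood above Il2ra in 2 of 3, Il2ra above Il2rg in 1 of 3 and Il7r above Il21r in 2 of 3. With CoA, Il21r came to 43.7 ± 3.51, ahead of Il7r (38.0 ± 3.98), with overlapping ranges. In Tc22, Il2rb (120.5 ± 22.1) and Il2ra (113 ± 35.1), Il2ra and Il2rg (104 ± 16.3), and Il4ra (27.2 ± 3.84) and Il21r (25.2 ± 1.75) overlapped, and Il7r stood at 50.3 ± 3.04. The order depends on the length used: with the longest transcript instead, 5 of 8 means over the 9 libraries moved by more than their SD. The order then stayed as it was in Tc0 and with CoA. In Tc22 Il2rg (149 ± 23.3) and Il2ra (146 ± 45.4) came before Il2rb (123 ± 22.6), and Il21r (33.6 ± 2.32) before Il4ra (31.1 ± 4.38).

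**Figure D1:**
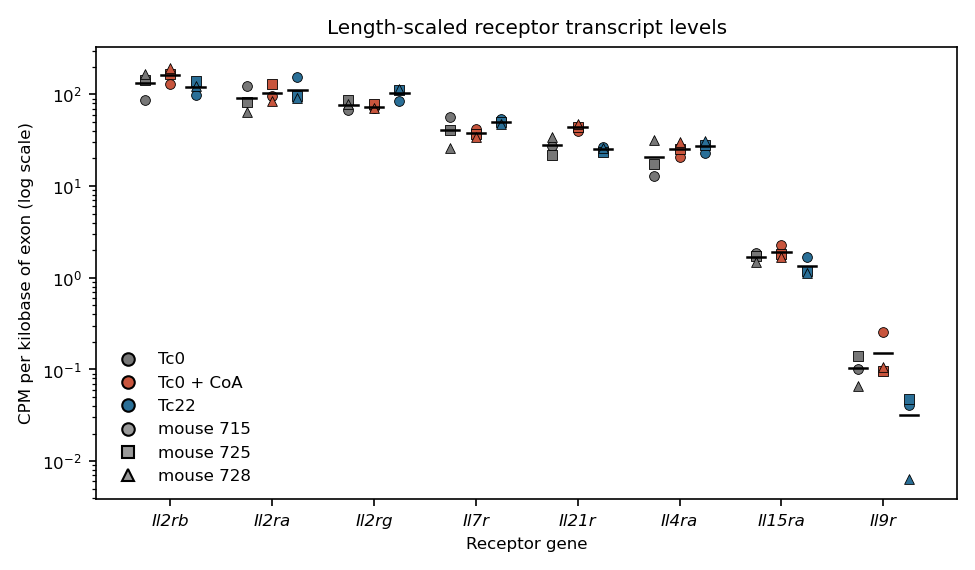
Level of each receptor gene in CPM per kilobase of exon on a log axis, 1 point per library (shape by mouse, colour by group) and the mean of each group as a line. Il2rb, Il2ra and Il2rg are the 3 highest in every group, and Il9r the lowest.

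The shared subunit, Il2rg, stood in mice 715, 725 and 728 at 161, 206 and 188 CPM in Tc0, at 169.6, 188 and 169 CPM in Tc0 with CoA, and at 204, 269 and 274 CPM in Tc22. The Tc22 values lay above those with CoA in every mouse, and these 2 groups did not overlap. The Tc22 and untreated Tc0 ranges overlapped, since the lowest Tc22 library lay below the highest Tc0 library.

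Il2ra, the alpha chain of the IL-2 receptor that T cells add on activation, stood at 713, 475 and 369 CPM in Tc0, at 551, 745 and 488 CPM with CoA, and at 876, 543 and 516 CPM in Tc22. Mouse 715 had the highest Il2ra value of its group in Tc0 and Tc22 and not with CoA, and the 3 groups overlapped. Il2rb, the beta chain of the IL-2 and IL-15 receptors, stood at 373, 617 and 714 CPM in Tc0, at 562, 707 and 842 CPM with CoA, and at 418, 607 and 526 CPM in Tc22. Here mouse 715 was the lowest in every group, and again all groups overlapped. Il15ra, which presents IL-15 to the beta and gamma chains, stood at 8.21, 7.74 and 6.55 CPM in Tc0, at 10.2, 8.03 and 7.41 CPM with CoA, and at 7.44, 5.25 and 5.05 CPM in Tc22. The order within each mouse was Tc22 below Tc0 below Tc0 with CoA, while the group ranges overlapped.

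Il21r, the private chain of the IL-21 receptor, stood at 92.0, 73.1 and 113 CPM in Tc0, at 133, 146 and 156 CPM with CoA, and at 88.5, 77.4 and 85.7 CPM in Tc22. All 3 libraries with CoA lay above all 6 others. Il4ra, which serves IL-4 with the gamma chain and IL-13 with another partner, stood at 76.6, 104 and 191 CPM in Tc0, at 126, 153 and 182 CPM with CoA, and at 138, 167 and 184 CPM in Tc22. The Tc0 library of mouse 728 held the highest Il4ra value of all 9, and the other 2 Tc0 libraries the lowest. Il7r, the private chain of the IL-7 receptor, stood at 262, 193 and 121 CPM in Tc0, at 197.5, 173 and 161 CPM with CoA, and at 249, 235 and 220.3 CPM in Tc22. Tc0 libraries spanned both other groups, which did not overlap each other.

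Il9r, the private chain of the IL-9 receptor, rested on few counts: 16, 15 and 12 in Tc0, 33, 13 and 12 with CoA, and 6, 8 and 1 in Tc22 libraries. These gave 0.504, 0.700 and 0.330 CPM in Tc0, 1.25, 0.470 and 0.533 CPM with CoA, and 0.204, 0.237 and 0.0320 CPM in Tc22. The Tc22 values lay below all others and did not overlap with either group.

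**Figure D2:**
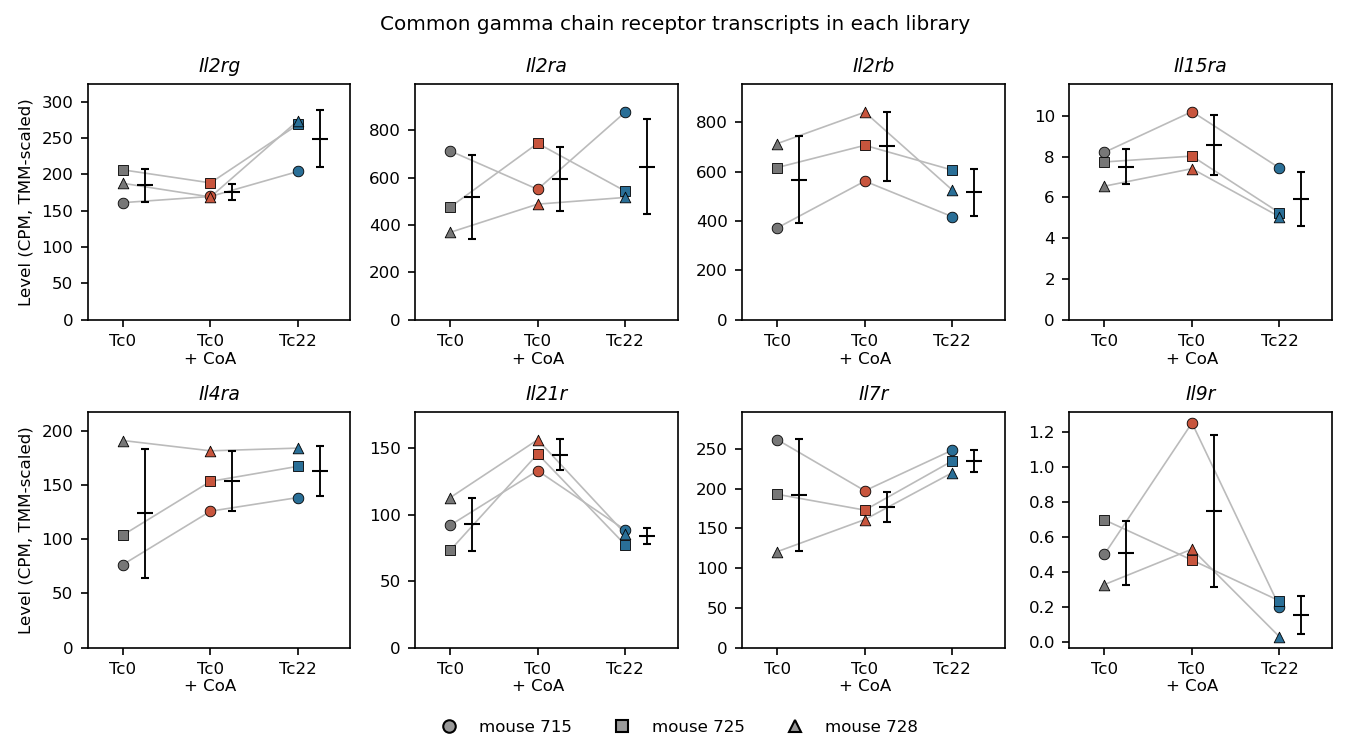
TMM-scaled CPM of the 8 receptor genes in the 9 libraries, 1 panel per gene with its own axis, points joined by mouse, and the mean ± SD of each group (n = 3) beside them. The 3 Il21r values with CoA, at 133 to 156 CPM, lie above all others, and the 3 Il9r values of Tc22 lie below 0.24 CPM.

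Tc0 cells given CoA were set against untreated Tc0 cells to ask which receptor transcripts differ when the cofactor is present during activation. Of the 8 receptor genes 1 rose, Il21r, and 0 fell. Of all 15348 genes tested, 24.5% were called at an adjusted p under 0.05 (12.5% higher and 12.0% lower), so 1 of 8 is no larger a share than that of the background. Il21r rose 1.58-fold (log2 0.66, SE 0.12, 95% interval 0.38 to 0.94, adjusted p = 0.00688 by edgeR's quasi-likelihood test), in all 3 mice. At an unadjusted p under 0.05 there were 3 of 8, against 38.1% of all genes. The groups' values did not overlap for 1 of 8, against 27.8% of all genes. Leaving out mouse 725 ended the call (adjusted p = 0.0918).

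The other 7 receptor genes did not pass with CoA, and their values are given without a direction. Il2ra had a log2 difference of 0.25 (interval -0.18 to 0.68, adjusted p = 0.374), Il2rb of 0.34 (0.04 to 0.63, adjusted p = 0.0888) and Il2rg of -0.07 (-0.30 to 0.17, adjusted p = 0.685) by edgeR. Il4ra had 0.38 (0.02 to 0.75, adjusted p = 0.117) and Il7r -0.07 (-0.43 to 0.30, adjusted p = 0.797). Il15ra had 0.18 (-0.17 to 0.53, adjusted p = 0.426) and Il9r 0.54 (-0.48 to 1.56, adjusted p = 0.423). The median over the 8 genes was 0.294 against -0.00911 over all genes tested. Without the Tc0 library of mouse 728, 3 of the genes passed: besides Il21r, Il2rb (log2 0.46, adjusted p = 0.0363) and Il4ra (0.66, 0.00841). Over the fits leaving out a library or mouse, all genes called ranged from 791 to 4307 of 15348. Without mouse 728, Il4ra passed too (0.64, 0.0376). Il2ra passed without mouse 715 (0.0481) and without the CoA library of mouse 715 (0.0232).

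The comparison of Tc22 with untreated Tc0 asks how the receptor transcripts differ in the interleukin-22 population. By edgeR, 0 of 8 receptor genes passed (4 at an unadjusted p under 0.05, and 1, Il2rg, by DESeq2), against 3.68% of all genes (2.48% higher and 1.21% lower). The genes at an unadjusted p under 0.05 were Il2rg, Il4ra, Il9r and Il15ra, and 21.2% of all genes reached that level. Il2rg had the smallest p of the 8, with a log2 difference of 0.43 (SE 0.11, interval 0.19 to 0.66, adjusted p = 0.0623), and was higher in 3 of 3 mice. Il9r differed by -1.68 (SE 0.55, adjusted p = 0.135), with groups that did not overlap, as held for 12.5% of all genes. Il4ra (0.48, adjusted p = 0.15) was higher in mice 715 and 725 and not in 728. Il2ra differed by 0.33 (adjusted p = 0.343) and Il7r by 0.35 (adjusted p = 0.257). Il2rb differed by -0.10 (adjusted p = 0.687), Il15ra by -0.36 (adjusted p = 0.228) and Il21r by -0.13 (adjusted p = 0.567).

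Some of these passed in other fits. Il2rg passed without the CoA library of mouse 715 (0.0319), without the Tc0 library of mouse 728 (0.0423), by DESeq2 (0.0219), with library size alone as the scaling (0.0490) and without the low-count filter (0.0297). Il4ra passed without the Tc0 library of mouse 728 (log2 0.75, adjusted p = 0.00769), without mouse 728 (0.77, 0.0241) and without the filter (0.0364). Il9r passed without the filter (0.0480). Over the 8 genes the median was 0.114, against -0.00839 over all genes tested.

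**Figure D3:**
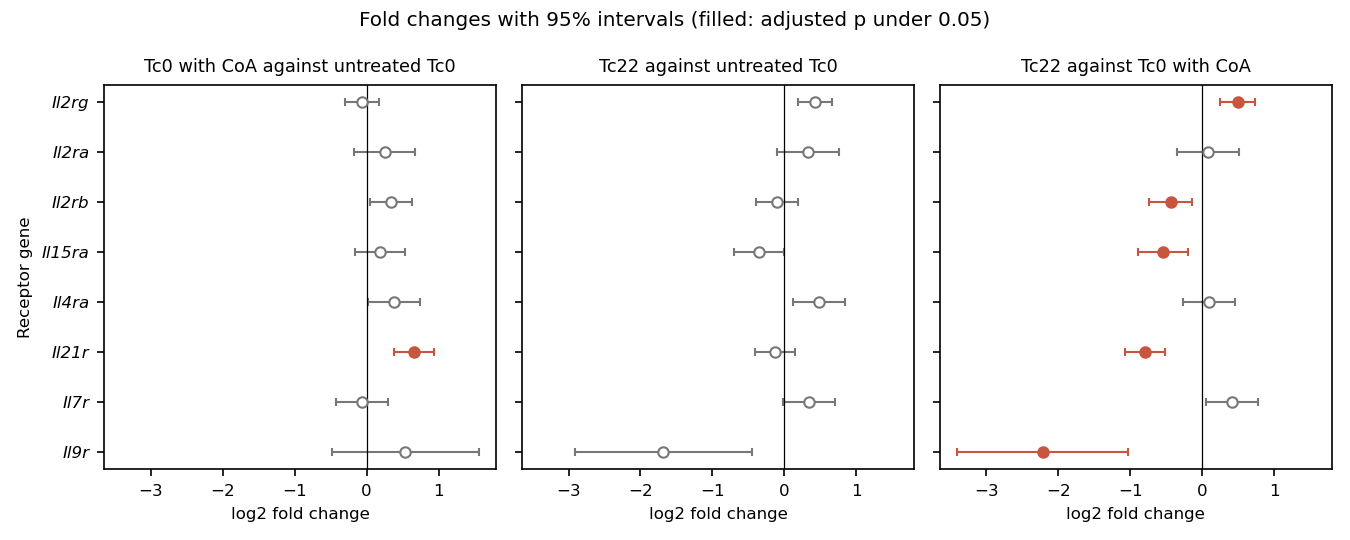
Log2 fold change of each receptor gene in the 3 comparisons with its 95% interval, and filled markers for an adjusted p under 0.05. Il21r is called in both comparisons with the CoA group, and the comparison of Tc22 with untreated Tc0 has 0 filled markers.

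In the direct comparison of Tc22 with Tc0 with CoA, 5 of 8 receptor genes passed: Il2rg rose, and Il21r, Il2rb, Il15ra and Il9r fell. Of all genes tested 32.0% were called, 16.0% higher and 16.0% lower. At an unadjusted p under 0.05 there were 6 of the 8 genes and 43.3% of all genes. Il21r was 0.578 of its level with CoA (log2 -0.79, SE 0.12, adjusted p = 0.00208 by edgeR), lower in 3 of 3 mice. The Il21r call held in every fit run, left-out libraries included. Il2rg was 1.41-fold higher in Tc22 (log2 0.49, SE 0.11, adjusted p = 0.00758), in 3 of 3 mice, and its call was lost without mouse 725 (0.0777), mouse 728 (0.0533) or the CoA library of mouse 728 (0.0682). These comparisons share the CoA or the Tc0 libraries, so their values stand side by side and were not counted as repeats.

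The other 3 falls kept their sign but not their call when libraries were left out. Il2rb fell to 0.738 of its level with CoA (log2 -0.44, SE 0.13, adjusted p = 0.0304 by edgeR) with overlapping ranges, and lost its call without any single mouse (0.0679 to 0.106), without the CoA library of mouse 715 or 728 (0.100 and 0.129), without any Tc22 library (0.0623 to 0.130) and without the mouse block (0.256). Its log2 difference ranged from -0.547 to -0.302 over the left-out fits. Il15ra fell to 0.689 (log2 -0.54, SE 0.16, adjusted p = 0.0262) in 3 of 3 mice. Its call was lost without any single mouse, any CoA library or any Tc22 library (0.0579 to 0.185) and without the block (0.133), with log2 differences from -0.617 to -0.471 over the left-out fits. Il9r fell to 0.215 (log2 -2.22, SE 0.53, adjusted p = 0.0119) and was lost without mouse 715 (0.0733) or 728 (0.0796) and without the CoA (0.0550) or Tc22 library (0.0506) of mouse 715, with log2 differences from -2.92 to -1.75. The groups did not overlap for 4 of the 8 genes, against 41.9% of all genes tested. Il7r had a log2 difference of 0.41 (adjusted p = 0.0777), higher in Tc22 in 3 of 3 mice. Il7r passed with the compared groups alone (0.00835), by DESeq2 (0.0484) and without the filter (0.0200). It also passed when the Tc0 library of mouse 715 (0.0404) or 728 (0.00986) was left out. Il2ra (0.08, adjusted p = 0.784) and Il4ra (0.10, adjusted p = 0.679) did not pass. The median of the 8 genes was -0.18, against 0.0109 over all genes.

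Ratios within a library describe how subunits stood to each other per length. The ratio of Il2rb to Il2rg was 1.29, 1.67 and 2.12 in Tc0 libraries of mice 715, 725 and 728, 1.84, 2.09 and 2.77 with CoA, and 1.14, 1.26 and 1.07 in Tc22. The Tc22 ratios lay below all others. The ratio of Il21r to Il2rg was 0.410, 0.255 and 0.432 in Tc0, 0.563, 0.556 and 0.665 with CoA, and 0.312, 0.207 and 0.225 in Tc22. Those with CoA lay above all others. The ratio of Il2ra to Il2rb was 1.44, 0.578 and 0.388 in Tc0, 0.735, 0.790 and 0.435 with CoA, and 1.57, 0.672 and 0.737 in Tc22, with overlapping groups.

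Of the 8 ligand genes that use or border these receptors, Il2, Il13 and Il21 passed the low-count filter. Il2, the gene of a T cell growth factor, stood at 0.252, 0.140 and 0.0275 CPM in Tc0 (8, 3 and 1 counts), at 3.99, 15.0 and 2.26 CPM with CoA, and at 0.476, 0.326 and 0.192 CPM in Tc22. Il2 rose with CoA (log2 5.37, SE 0.55, adjusted p = 0.000773 by edgeR) in 3 of 3 mice. It was lower in Tc22 than with CoA (-4.18, adjusted p = 0.000630) and did not pass in Tc22 against Tc0 (1.19, adjusted p = 0.349).

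Il21, the gene of a cytokine that acts through Il21r, was at 0.252, 0.186 and 0 CPM in Tc0 (8, 4 and 0 counts), at 1.97, 3.40 and 0.533 CPM with CoA, and at 4.49, 1.48 and 1.60 CPM in Tc22. Every library of the other 2 groups lay above every Tc0 library. Il21 rose with CoA (log2 3.78, SE 0.70, adjusted p = 0.00654) and in Tc22 against Tc0 (4.23, SE 0.68, adjusted p = 0.00909). The Tc22 call was lost without mouse 715 (0.0574) and without the block (0.100). The direct difference was 0.45 (adjusted p = 0.537). Il13, a type 2 cytokine gene that uses Il4ra, had 1, 0 and 0 counts in Tc0, 108, 243 and 153 with CoA, and 5, 0 and 1 in Tc22. It rose with CoA (adjusted p = 0.000489) and fell from CoA to Tc22 (adjusted p = 0.000257), with no fold change given because of the counts near 0.

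**Figure D4:**
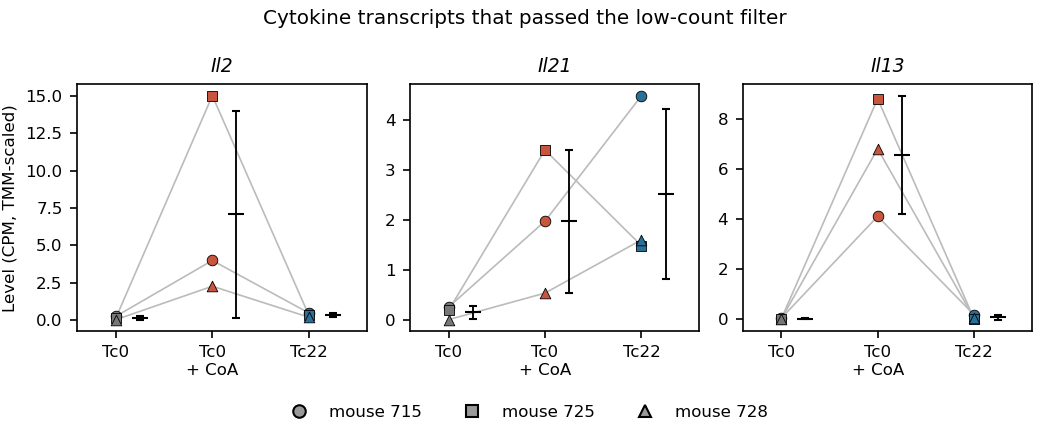
CPM of the ligand genes Il2, Il13 and Il21 in the 9 libraries on linear axes, 1 point per library, points joined by mouse, and the mean ± SD of each group (n = 3) beside them. The 3 libraries with CoA are above all Tc0 libraries for each gene.

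Of the other ligand genes, Il4 was at 0 to 0.222 CPM, Il15 at 0.0640 to 0.504 CPM, Il7 at 0 or 1 count and Tslp at 0 to 2 counts per library. Il9 had 1, 10 and 2 counts with CoA and 0 in all 6 other libraries. These did not pass the filter and were not tested.

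The partner chains outside the family were low. Crlf2, the receptor chain that binds TSLP with Il7r, stood at 4.60, 5.04 and 6.86 CPM in Tc0, at 2.89, 2.39 and 3.77 CPM with CoA, and at 4.79, 4.68 and 5.24 CPM in Tc22. All CoA libraries lay below all others. Crlf2 fell with CoA (log2 -0.87, SE 0.19, adjusted p = 0.0104 by edgeR), lost without mouse 725 (0.110), mouse 728 (0.0561), the CoA library of mouse 725 (0.0588), the Tc0 library of mouse 725 (0.0553) and the block (0.0503). Il13ra1, which pairs with Il4ra for IL-13, stood at 0.138 to 0.326 CPM in Tc0, at 0.399 to 1.34 CPM with CoA and at 0.128 to 0.442 CPM in Tc22. The CoA libraries of mice 715 and 725 held the highest values, and the library of mouse 728 overlapped with Tc22. Il13ra1 rose with CoA (log2 1.85, SE 0.46, adjusted p = 0.0183), lost without mouse 725 or 728, without the CoA library of either mouse, without the Tc0 library of mouse 715 or 725 (0.0546 to 0.137) and without the block (0.0662). From CoA to Tc22, Crlf2 rose and Il13ra1 fell by edgeR. Of 12 fits that left out a library or a mouse, 6 lost the Crlf2 call and 4 the Il13ra1 call. Both were lost without the block (0.0789 and 0.0669), and Il13ra1 also by DESeq2 (0.052). Il13ra2, the decoy chain for IL-13, had 0 counts in all 9 libraries.

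Counts of called genes in the lists below are to be read against all genes tested, of which 24.5% were called with CoA (12.5% higher, 12.0% lower), 3.68% in Tc22 against Tc0 (2.48% and 1.21%) and 32.0% in Tc22 against CoA (16.0% and 16.0%). All genes had median log2 differences of -0.00911, -0.00839 and 0.0109. These shares and medians are of the fit on all 9 libraries. With a library or mouse left out, all genes called ranged from 791 to 4307 of 15348 with CoA. They ranged from 195 to 2697 in Tc22 against Tc0 and from 1837 to 5876 in Tc22 against CoA. List counts without a library or mouse are to be read against those ranges. Of 9 JAK and STAT genes, 1 rose and 2 fell with CoA, and 4 rose in Tc22 against CoA. In Tc22 against Tc0, 6 of the 9 were called without the Tc0 library of mouse 728, more than with it. All genes called in that comparison were 565 with every library in, and up to 2697 with a library or mouse left out. Jak3, the kinase bound by the gamma chain, stood at 45.2, 44.9 and 121 CPM in Tc0, at 50.5, 42.9 and 81.4 CPM with CoA, and at 102, 95.4 and 125 CPM in Tc22. The Tc0 library of mouse 728 lay with the Tc22 libraries. Jak3 rose in Tc22 against CoA (log2 0.94, SE 0.19, adjusted p = 0.00568 by edgeR) and lost that call without the block (0.15). In Tc22 against Tc0 it differed by 0.76 (adjusted p = 0.0637), and with CoA by -0.19 (adjusted p = 0.512). Jak1 (-0.42, adjusted p = 0.0493) and Jak2 (-0.39, adjusted p = 0.0477) fell with CoA, and 9 and 8 of 12 fits that left out a library or a mouse lost these calls (adjusted p up to 0.461). Stat5a, a main transducer of IL-2, rose with CoA (0.68, SE 0.17, adjusted p = 0.0173), lost without mouse 725 (0.181), the CoA library (0.0892) or Tc0 library (0.0987) of mouse 725, the Tc0 library of mouse 715 (0.0503) and the block (0.118). Stat5b, the other STAT5 gene, stood at 144.5 ± 62.5 CPM in Tc0, at 124 ± 23.7 CPM with CoA and at 178 ± 42.4 CPM in Tc22. Stat5b was not called with CoA against Tc0 and rose in Tc22 against CoA. That call was lost in 5 of 12 fits leaving out a library or mouse, and without the block (0.258). Jak2 rose in Tc22 against CoA too, lost in 6 of 12 such fits and without the block (0.0893).

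Of 18 genes known to respond to IL-2 and STAT5, 6 rose and 2 fell with CoA (median log2 0.437; 24.5% of all genes were called), 1 rose and 0 fell in Tc22 against Tc0 (median 0.100), and 3 rose and 4 fell in Tc22 against CoA (median -0.177). With CoA the count was 3 and 1 without mouse 725 and 8 and 2 without the Tc0 library of mouse 728. In Tc22 against Tc0 it was 4 and 0 without that library, and 0 and 0 without mouse 715, without mouse 725 or without the block. The list was chosen with these data known and is not independent evidence of a direction. Ccnd2, a cyclin, went from 266 ± 17.2 CPM in Tc0 to 835 ± 259 CPM with CoA (log2 1.63, adjusted p = 0.00112 by edgeR) and was 257 ± 47.1 CPM in Tc22. Osm, a STAT5 target cytokine gene, rose with CoA (0.87, adjusted p = 0.00238) and Gzmb, a granzyme, rose too (0.80, adjusted p = 0.00353). Bcl2l1, an anti-apoptotic gene, was lower in Tc22 than with CoA (-1.43, adjusted p = 0.000987). Prdm1, a repressor gene of effector cells, fell with CoA (-2.64, adjusted p = 0.00266). Of 8 genes known to respond to IL-4 and STAT6, 5 were tested, and 2 rose with CoA, led by Pparg, a nuclear receptor gene (1.75, adjusted p = 0.00147). Pparg was the 1 member that rose in Tc22 against Tc0 (1.44, adjusted p = 0.00473, or 0.0568 without the block), and without the Tc0 library of mouse 728 it was 1 of 3.

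Of 11 genes listed for FOXO1 and quiescence, 0 rose and 5 fell with CoA (median -0.464). In Tc22 against Tc0 0 rose and 1 fell, and in Tc22 against CoA 4 rose and 1 fell (median 0.416). The falls with CoA depended on the libraries used: 0 of the 11 genes were called without mouse 725, without mouse 728 or without the block, and 2 without the Tc0 library of mouse 728. Without that library Foxo3 (0.0574), Klf2 (0.0650) and S1pr1 (0.0762) missed the threshold, while Btg1 kept its call. In Tc22 against CoA 2 rose and 0 fell without mouse 725, and 1 rose and 0 fell without mouse 728. S1pr1, an egress receptor, was at 43.2, 42.1 and 43.4 CPM with CoA and 75.6, 129.6 and 134 CPM in Tc22 (log2 1.32, adjusted p = 0.00235 by edgeR). Of 8 negative regulators of JAK signalling, 0 rose and 3 fell with CoA, 0 rose and 1 fell in Tc22 against Tc0 (2 and 2 when that Tc0 library is left out), and 3 rose and 1 fell in Tc22 against CoA. Cbl, a ubiquitin ligase, fell with CoA (-0.54, adjusted p = 0.00827), lost without mouse 725 (0.0821), mouse 728 (0.0546) or the CoA library of mouse 728 (0.0630). Cblb, a related ligase, was lower in Tc22 than with CoA (-0.64, adjusted p = 0.00845), lost without the Tc22 library of mouse 725 (0.0577). The 3 rises against CoA, Ptpn2, Pias1 and Ptpn6, were lost in 7, 8 and 7 of 12 fits leaving out a library or mouse.

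Of 13 activation genes, 6 rose and 1 fell with CoA, 2 rose and 0 fell in Tc22 against Tc0, and 1 rose and 6 fell in Tc22 against CoA. All genes called were 24.5%, 3.68% and 32.0% in these comparisons. With CoA 4 rose and 0 fell without mouse 725 and 3 rose and 0 fell without mouse 728, and in Tc22 against CoA 0 rose and 3 fell without mouse 725. Egr2 (log2 1.64, adjusted p = 0.00195) and Nr4a1 (1.74, adjusted p = 0.00218), early response transcription factor genes, and Tfrc, the transferrin receptor (1.04, adjusted p = 0.00263), rose with CoA by edgeR. Tnfrsf4, the gene of OX40, rose in Tc22 against Tc0 (1.03, adjusted p = 0.00308), lost without the block (0.0791).

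Of 25 other cytokine receptor chains, 23 were tested. With CoA 5 rose and 6 fell (median -0.0878), 4 rose and 0 fell in Tc22 against Tc0, and 6 rose and 4 fell in Tc22 against CoA. Without mouse 725 these counts were 3 and 1 with CoA and 3 and 1 in Tc22 against CoA, and without mouse 728 they were 3 and 0 with CoA. In Tc22 against Tc0 the count was 1 and 0 without the block. Il23r rose with CoA (log2 3.90, adjusted p = 0.000329 by edgeR) from 0.285 ± 0.190 to 4.43 ± 2.48 CPM, and Csf2rb, a beta chain of other haematopoietic cytokine receptors, rose (1.66, adjusted p = 0.00602). Il1r1, the IL-1 receptor, stood at 0.0944, 0.233 and 0.0826 CPM in Tc0, at 2.16, 4.59 and 1.24 CPM with CoA, and at 2.31, 1.98 and 1.76 CPM in Tc22. The Tc0 values rest on 3, 5 and 3 counts. Its call held in every fit run, with CoA (log2 4.23, adjusted p = 0.000916) and in Tc22 against Tc0 (3.98, adjusted p = 0.00200), and every Tc0 library lay below the other 6. Il23r rose in Tc22 against Tc0 too (2.79, adjusted p = 0.00160, lost without the block at 0.138). Il27ra was higher in Tc22 than in Tc0 (0.91, adjusted p = 0.00442, lost without the block at 0.152) and than with CoA (0.81, adjusted p = 0.00191). Il17ra was higher in Tc22 than with CoA (0.996, adjusted p = 0.00312). Il1rl1, the IL-33 receptor, was lower in Tc22 than with CoA (-3.22, adjusted p = 0.00166).

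Marker levels of other cell types moved with some of these groups. With CoA against untreated Tc0, 2 of 5 tested macrophage and monocyte markers rose and 0 fell, Lyz2 (log2 1.15, adjusted p = 0.0117 by edgeR) and Cd14 (2.24, adjusted p = 0.0134), and the list summed to 4.97 to 8.26 CPM in Tc0. Mcpt8 of the basophil and mast cell list rose (2.77, adjusted p = 0.00431), as did the dendritic cell marker Zbtb46 (1.06, adjusted p = 0.0139), 1 of 4 tested, and Cd74 of the B cell list (2.58, adjusted p = 0.000456), 1 of 3. Another of the B cell list, H2-Ab1, fell (-0.96, adjusted p = 0.0113). These stand beside the rises of Il13, Il13ra1 and Csf2rb with CoA. Adgre1, a defining macrophage marker, was at 0 to 1.59 CPM in all 9 libraries, and Siglech was at 0 in all of them. The basophil and mast cell list summed to 24.6 to 46.3 CPM in Tc0, the dendritic cell list to 3.73 to 5.01 CPM in Tc0 and 5.46 to 9.40 CPM with CoA, and the B cell list to 22.8 to 50.2 and 41.0 to 48.1 CPM. Of 6 basophil and mast cell markers 3 were tested, and Cpa3 and Mcpt8 were lower in Tc22 than with CoA by edgeR (1 of the 3 by DESeq2), as was Il9r. Cpa3 was at 0.987, 1.41 and 1.07 CPM with CoA and 0.0340, 0.593 and 0.0640 CPM in Tc22. Fcer1a stayed at or below 0.506 CPM and Ms4a2 at or below 0.832 CPM, with 2 Tc0 libraries and 1 Tc22 library at 0 for Ms4a2. The summed list ranged from 24.9 to 46.6 CPM with CoA and from 25.8 to 28.7 CPM in Tc22, mostly Kit. Of 5 tested macrophage and monocyte markers, 1 rose and 3 fell from CoA to Tc22 by edgeR (3 called by DESeq2). The list summed to 5.47 to 15.3 CPM with CoA and to 6.73 to 8.63 CPM in Tc22. Of 3 tested natural killer cell markers 2 rose by edgeR (1 called by DESeq2). The list of 5 summed to 0.977 to 1.82 CPM with CoA and to 3.81 to 5.13 CPM in Tc22. In Tc22 against Tc0, Klra7 of these 3 rose, as did Cd74 and H2-Ab1 of 3 tested B cell markers. The macrophage and monocyte, dendritic cell, and basophil and mast cell lists had 0 called there. Of all genes tested, 3.68% were called in Tc22 against Tc0. Of 6 CD4 and regulatory T cell markers, 1 rose and 1 fell with CoA. In Tc22 against Tc0, Cd4 and Tnfrsf18 rose by edgeR (1 of the list called by DESeq2). From CoA to Tc22, 1 of the 6 rose and 1 fell. That list summed to 477 to 699 CPM in Tc0, 230.5 to 468 CPM with CoA and 428 to 592 CPM in Tc22. Trdc, the 1 gamma delta T cell marker tested, fell with CoA and rose from CoA to Tc22. The part of these cells in the results for receptors and ligands was not tested.

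Genes most alike in pattern were found by Pearson correlation of log2 CPM over the 9 libraries after removing each mouse's mean, over 9818 genes at 5 CPM or more. These coefficients are a description, since the named genes are the closest of all those compared, over 9 libraries in 3 groups from the same mice. For Il21r the nearest were Urb1 (r = 0.996), Trub2 (0.993) and Bst2 (0.993). For Il2rg they were Ubap1 (0.989), Tnfaip3 (0.984) and Gpr183 (0.983). For Il2rb they were Fancg (0.962), Taco1 (0.954) and Sh2d2a (0.946). For Il15ra they were Ube4a (0.981), Fbxo22 (0.974) and Klrk1 (0.970). For Il9r, over 9819 genes, they were Rufy1 (0.972), Ets2 (0.970) and Jdp2 (0.968). Urb1 averaged 38.4 CPM in Tc0, 64.2 CPM with CoA and 35.9 CPM in Tc22, like Il21r highest with CoA.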

How the data were processed

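Per the labels' protocols, CD8+ T cells received CoA or vehicle during 3 days of activation. Their RNA was depleted of ribosomal RNA, made into libraries with a strand-marking total RNA kit and sequenced as paired ends. The authors deposited gene counts for 9 libraries as 1 table, and the 9 single-library files were identical to it. STAR 2.5.2 and RSEM 1.3.0 appear in the submitters' processing notes, as do GRCm38 and mm10, without a stated role. The sources used here give neither the strand setting nor the annotation release, so antisense or overlapping genes may share reads. The deposited counts are whole numbers and may be rounded RSEM estimates.

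Groups and mice were taken from sample titles. Per the series' design text, each mouse supplied all populations, so mouse was a block. Same-mouse libraries deviated together from their group means (r 0.0683 to 0.591, mean 0.341 over 9 pairs). Counts were fitted with edgeR 4.0.16 (R 4.3.3): TMM scaling, filterByExpr by group, quasi-likelihood F test on all 9 libraries with terms for group and mouse (4 residual degrees of freedom, biological coefficient of variation 0.158), 15348 genes tested, Benjamini-Hochberg adjustment over all of them, threshold 0.05. Standard errors are the absolute log2 fold change over the square root of F, and intervals are 95%. The p-values rest on 3 mice. DESeq2 1.42.0 was an alternative. The fit was also run on simulated counts with known changes in the CoA group and the same spread for every gene. Those counts held no outlying library, so that run does not cover the Tc0 library of mouse 728. CPM values are TMM-scaled, and per-kilobase values use the union of exons in GENCODE M21. Tables and figures were made with Python 3.11.15, pandas 2.3.3 and NumPy 2.4.6.

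The members and all gene lists were chosen with earlier results of these data known. The text names all 8 receptor genes and all family cytokines, up to 4 called members per other list and comparison with the smallest p (2 where none passes), and for each called receptor gene the 3 genes most alike in pattern. Of the genes that the rule takes, most of those whose call was lost on leaving out a library were left out of the text, other than receptor, cytokine, partner-chain, JAK and STAT genes. For 1 gene of the JAK and STAT list, results are not reported here.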

Additional observations from a re-analysis of the deposited data

How the results depend on the processing

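Calls were compared under 6 other settings and with each mouse or library left out in turn. Receptor genes called with CoA against Tc0 were 1 under every other setting and 0 to 3 with libraries left out. In Tc22 against Tc0 they were 1 by DESeq2, 1 with library size alone, 3 without the low-count filter, and 0 to 2 with libraries left out. In Tc22 against CoA they were 3 without the mouse block and 1 to 6 with libraries left out. All genes called ranged from 791 to 4307 (CoA against Tc0), 195 to 2697 (Tc22 against Tc0) and 1837 to 5876 (Tc22 against CoA) with libraries left out. Without the mouse block they were 1462, 120 and 2097. In Tc22 against Tc0 they were 953 by DESeq2 and 1275 without the filter. Left-out libraries turned the sign of some differences that were not called: Il2ra (-0.00802 to 0.537), Il2rg (-0.157 to 0.0041) and Il7r (-0.296 to 0.139) with CoA, Il2rb (-0.224 to 0.0671), Il21r (-0.256 to 0.00892) and Il13ra1 (-0.569 to 0.661) in Tc22 against Tc0, and Il2ra (-0.188 to 0.36), Il4ra (-0.00611 to 0.245) and Il21 (-0.0455 to 1.36) in Tc22 against CoA. The cause was not tested. The counts in gene lists without the Tc0 library of mouse 728 and the order by longest transcript within groups were chosen after seeing the data. Il9r rests on 1 to 33 counts per library, and Il2 and Il21 on 0 to 8 counts in Tc0, which limits their precision.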
